A study of Mus musculus with 18 samples.

Results

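Heart muscle cells with a single nucleus were compared between adult mice and mice at postnatal day 7 (P7). The comparison took 3 adult mononucleated libraries against 3 P7 mononucleated libraries, which are 6 of the 18 libraries of the series, and covered all 12048 genes listed for each library. The other libraries held binucleated cardiomyocytes of both ages and mononucleated and binucleated cells of the late fetal stage E18.5. Every group, adult and P7 alike, carried Mlc2vcre together with R26REYFP, so there was no group without the transgenes. Mlc2v is the ventricular myosin light chain gene, whose Cre line removes a stop from a yellow fluorescent reporter in ventricular muscle cells. Cells were sorted by flow cytometry, with the number of nuclei as the sorting class. The labels give no exact adult age, sex or animal number, and do not say whether the replicates of a group were separate animals, so each p-value reflects only how these libraries scatter, possibly for technical reasons.

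In the mouse, cardiomyocytes divide until about birth, replicate DNA once more in the following days and mostly end this round with a second nucleus instead of a second cell. A minority stays mononucleated. Over the same weeks the heart muscle cell changes its fuel to fatty acids, exchanges fetal for adult subunits of its contractile filaments and builds the transverse tubules and calcium stores of the adult beat. The comparison describes this postnatal period in cells sorted as mononucleated at each age. The sorts are separate samples, and whether the P7 cells would have kept a single nucleus was not tested.

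Values are given as CPM, reads scaled to a common library size, computed from the whole read counts that the deposited log2 values encode and from the library size encoded with them. Recovered totals ran from 16927731 to 20946659 reads per adult library and from 16476191 to 20909939 per P7 library. The library sizes encoded in the values were 14466479 to 18220049 in adult libraries, each below its total. In P7 libraries they were 17187758 to 23031491, each above its total. CPM and log2 fold changes therefore set the adult higher against P7 than shares of all reads do. Myh6, for example, took on average 1.755% of reads in adult and 1.556% in P7 libraries. Replicates correlated at r = 0.970 to 0.974 among adult and 0.971 to 0.980 among P7 libraries over all genes. The p-values also draw on the spread within the other groups. There E18.5 binucleated replicate 1 stood apart, at r = 0.884 and 0.896 with its replicates, which correlated with each other at 0.964. Leaving it out raised the count of genes that passed the limma test from 4993 to 6484. The sum of 17 cardiomyocyte markers, such as Myh6, Tnnt2, Ryr2 and Ttn, ran from 81730 to 87160 CPM in adult libraries and from 58280 to 61840 CPM in P7 libraries, so the labelled cell type carried its defining transcripts in all 6. Adult replicate 1 stood apart in the 4 Y-linked transcripts that were listed. Their summed level was 423, 155 and 146 CPM in adult libraries 1, 2 and 3, against 99.4, 156.5 and 159.6 CPM in P7 libraries. Without adult replicate 1, 4349 genes passed the test, against 4993 with it.

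At an adjusted p under 0.05 (limma on the log2 values of all 18 libraries, Benjamini-Hochberg over 12048 genes), 4993 genes differed between adult and P7 mononucleated cells, which is 41.4% of those tested. Higher in the adult were 2303 genes (19.1%) and lower 2690 (22.3%). At an unadjusted p under 0.05 the count was 5861. In 7144 genes (59.3%) the 3 adult values lay entirely above or below the 3 P7 values, and 4916 of these were also called. The large changes were more often decreases. A log2 fold change of 3 or more was seen in 232 called genes that were higher and 605 that were lower, and one of 5 or more in 52 and 217. Log2 fold changes are adult minus P7 throughout, on a scale with an offset of 0.5 read that understates the change of genes with few reads. The median change over all genes was -0.01.

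**Figure D1:**
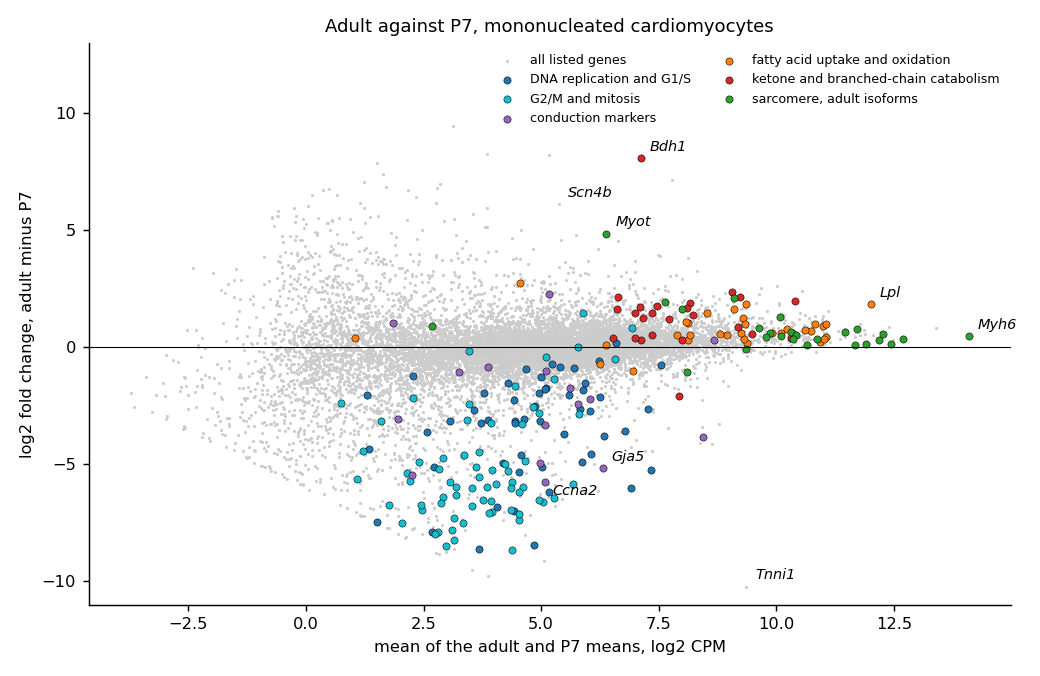
Change of 12045 genes between adult and P7 mononucleated cells (y axis, log2 fold change, adult minus P7) against their level (x axis, log2 of the mean CPM of both groups); 3 genes without reads in these 6 libraries are not drawn. Coloured points are the members of 6 gene lists: replication and mitosis genes lie far below 0 and ketone and branched-chain genes mostly above 0. Among the genes with a printed name, Tnni1 (-10.22) lies lowest and Bdh1 (8.08) highest.

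Cell cycle genes were lower almost throughout. DNA is copied by helicases, polymerases and their loading factors, whose genes are switched on by E2f factors at the start of S phase, while mitotic genes follow later. Of 53 measured genes of DNA replication and the G1/S transition, 52 were lower in adult cells and 0 higher, with a median log2 fold change of -3.11 beside the -0.01 of all genes. Of 69 genes of G2/M and mitosis, 64 were lower and 2 higher (median -5.76). Both directions were the same under every scaling tried. The summed level of the replication genes was 716, 826 and 816.5 CPM in adult libraries and 3042, 4186 and 4155 CPM in P7 libraries, and that of the mitotic genes 502 to 557 CPM in the adult and 1953 to 2434 CPM at P7. In RNA from a whole sorted sample, fewer cycling cells and less of these transcripts in each cell cannot be told apart.

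Rrm2, the small subunit of the enzyme that makes deoxynucleotides, had 7.36, 10.4 and 7.35 CPM in adult libraries and 244, 331 and 369 CPM in P7 libraries. The groups were far apart, with every adult value below every P7 value. It fell by 5.22 on the log2 scale (± 0.19 SE, n = 3 per group, limma adjusted p = 1.58e-11), a 37.4-fold decrease. Mcm6, a subunit of the replicative helicase, fell to 3.68, 3.46 and 3.55 CPM in the adult, against 176, 273 and 266 CPM at P7 (log2 fold change -6.03 ± 0.29 SE, limma adjusted p = 2.8e-10). Clspn, the checkpoint adaptor of the fork, had 0 reads in all adult libraries and 4.38, 8.57 and 4.13 CPM at P7, at least 94.3-fold lower with a floor of 3 reads over the adult group. Uhrf1, which brings the maintenance methylase to newly copied DNA, was lowered with them (-6.17). Gmnn, the inhibitor of origin licensing, was the single member that did not pass, with 93.6, 106 and 103 CPM in the adult and 70.3, 101 and 101 CPM at P7 (limma adjusted p = 0.516).

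Among the mitotic genes, Ccna2, the cyclin of S and G2 phase, had 0.659, 1.04 and 0.367 CPM in adult libraries, against 64.3, 60.3 and 70.8 CPM in P7 libraries. Its groups did not overlap and lay 97.9-fold apart (-6.61 ± 0.31 SE, limma adjusted p = 2.5e-10). Top2a, the topoisomerase that untangles chromosomes, fell to 1.59, 2.28 and 1.35 CPM in the adult, against 87.5, 105 and 108 CPM at P7 (-5.85 ± 0.23 SE, limma adjusted p = 3.63e-11). Its relative Top2b, which also serves cells that do not divide, was lower too, at 142, 95.1 and 132 CPM in the adult against 248, 215 and 178 CPM at P7 (-0.80 ± 0.20 SE, limma adjusted p = 0.00438), and the log2 ratio of Top2b to Top2a changed by 5.05. Cdk1, the mitotic kinase (-6.52), Ccnb1, its cyclin (-6.94), and the proliferation marker Mki67 (-5.75) fell as well. The 2 members that were higher were Cenpf, a kinetochore protein that in muscle is also found at the nuclear envelope, and Pttg1, securin. Cenpf had 92.9, 77.8 and 91.6 CPM in adult libraries and 38.4, 26.6 and 30.8 CPM in P7 libraries, with no overlap (1.47 ± 0.15 SE, limma adjusted p = 9.58e-07). Pttg1 had 126, 147 and 192 CPM in the adult against 70.2, 75.8 and 120 CPM at P7 (limma adjusted p = 0.0221), and it lost the call without P7 replicate 1, P7 replicate 2 or adult replicate 3 (limma adjusted p = 0.0956, 0.0801 and 0.101) and under quantile normalization (0.055).

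The promoters of these 2 lists are shown because they moved together and carry different short motifs. In the RefSeq table for GRCm38.p6, 9376 of the listed genes have a window of 250 bases before to 50 after the start. The E2F site was searched as TTTCCCGC or TTTGGCGC and the cell cycle homology region (CHR element) as TTTGAA, on both strands, with overlapping matches of either motif counted once per gene. An E2F site stood in the window of 14 of 41 replication genes (34.1%) and 5 of 59 mitotic genes (8.47%), against 331 of all 9376 (3.53%). A CHR element stood in 38 of 59 mitotic genes (64.4%) and 5 of 41 replication genes (12.2%), against 1318 of all (14.1%). A match is a description of these letters, not evidence of binding. The E2F genes printed were taken from replication genes whose change differed between nuclear classes, described below. The CHR genes printed were the mitotic genes with a match and the smallest adjusted p-values. In the following stretches capitals mark the match of the motif named for that gene, and each is written 5′ to 3′ on the strand of the gene. For the E2F site these are the helicase subunit Mcm7 (chr5:138171991-138172098, minus strand), the catalytic subunit of polymerase delta Pold1 (chr7:44548766-44548826, minus strand) and the replication complex subunit Gins3 (chr8:95633468-95633575, plus strand). For the CHR element they are Top2a (chr11:99024157-99024262, minus strand), the chromosome motor Kif22 (chr7:127042382-127042487, minus strand) and the spindle protein Hmmr (chr11:40733388-40733479, minus strand).
Mcm7: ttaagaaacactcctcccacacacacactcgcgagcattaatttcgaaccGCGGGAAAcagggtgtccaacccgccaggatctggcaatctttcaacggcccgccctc
Pold1: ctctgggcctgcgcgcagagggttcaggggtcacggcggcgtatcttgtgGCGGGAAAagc
Gins3: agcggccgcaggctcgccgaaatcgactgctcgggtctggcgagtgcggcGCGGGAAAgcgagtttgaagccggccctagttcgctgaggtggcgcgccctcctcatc
Top2a: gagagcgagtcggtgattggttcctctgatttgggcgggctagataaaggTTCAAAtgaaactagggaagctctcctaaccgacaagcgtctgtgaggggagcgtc
Kif22: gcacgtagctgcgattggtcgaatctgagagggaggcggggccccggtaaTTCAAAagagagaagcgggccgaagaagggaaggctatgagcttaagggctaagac
Hmmr: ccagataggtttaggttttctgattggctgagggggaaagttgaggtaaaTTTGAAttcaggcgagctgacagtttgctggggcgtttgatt
The matches in Mcm7 and Gins3 begin 165 and 41 bases before the start, and that in Pold1 at transcribed base 40. The Gins3 stretch also holds an unmarked TTTGAA, the letters of the CHR element, after its E2F site. In Top2a and Kif22 the marked match begins 23 and 17 bases before the start, and each of these windows holds 2 CHR matches. In Hmmr it begins at transcribed base 9.

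The 6 genes behind these sequences fell by different amounts. Mcm7 had 9.77, 14 and 8.76 CPM in adult libraries and 122, 160 and 170 CPM in P7 libraries (-3.81 ± 0.28 SE, limma adjusted p = 2.17e-08). Pold1 fell to 16.9, 14.8 and 15.6 CPM in the adult, against 47.7, 52.1 and 59.8 CPM at P7 (-1.75), and Gins3 to 1.15, 1.8 and 2.08 CPM, against 12, 17.8 and 15.5 CPM (-3.17). The CHR genes Kif22 and Hmmr changed by -7.53 and -7.36. Kif22 had 19.5, 18.8 and 22.2 CPM at P7 and at most 0.122 CPM in an adult library.

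The regulators of the cycle split into those that follow it and those that do not. Of 28 measured E2f, Rb and G1 cyclin genes, 17 were lower (60.7%) and 6 higher (21.4%), beside 22.3% and 19.1% of all genes (median -1.06). E2f1, an activator of S phase genes, had 1.21, 1.73 and 0.735 CPM in adult libraries and 56.1, 79.2 and 73.6 CPM in P7 libraries, without overlap (-5.86 ± 0.33 SE, limma adjusted p = 1.42e-09). E2f2, of the same activator class, had 0 reads in the adult and was at least 105-fold lower. Mybl2, which drives late cycle genes, had 2 reads over the adult libraries and 414 over the P7 libraries, a ratio of 164.5 of P7 to adult (exact 95% interval 45.3 to 1363, counting error only). The D cyclins did not move together. Ccnd1 was higher in the adult, at 11, 4.7 and 4.53 CPM against 2.13, 0.839 and 1.69 CPM at P7 (2.08 ± 0.49 SE, limma adjusted p = 0.0029), while Ccnd2 (-0.95), Ccnd3 (-1.18) and their kinase Cdk4 (-1.36) were lower. Myc, a growth regulator, was higher at 27.3, 79.8 and 61.9 CPM against 9.64, 7.88 and 5.53 CPM at P7 (2.77 ± 0.52 SE). Rb1, the retinoblastoma gene, had 13.3, 20.4 and 15.5 CPM in adult and 15.5, 15.6 and 16.3 CPM in P7 libraries and did not pass (limma adjusted p = 0.953).

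The inhibitors of cell cycle kinases showed no common direction. Of 17 genes of this and the p53 list, 6 were higher (35.3%) and 5 lower (29.4%), beside 19.1% and 22.3% of all genes. The median was 0.10, and -0.06 without P7 replicate 3 or without adult replicate 2. Cdkn1a, the p21 inhibitor, had 69.3, 195 and 75.9 CPM in adult libraries and 76.1, 83 and 79.8 CPM in P7 libraries, so the groups overlapped and 1 adult library was high (limma adjusted p = 0.582). Of 29 centrosome and nuclear lamina genes 13 were lower (44.8%) and 2 higher (6.9%), beside 22.3% and 19.1% of all genes (median -0.66). Lmnb1, the B-type lamin of dividing cells, fell to 3.62, 1.45 and 1.47 CPM in the adult, against 32.4, 28.4 and 28.2 CPM at P7 (-3.88 ± 0.36 SE, limma adjusted p = 3.48e-07). Stil, needed to build a new centriole, had 2 reads in the adult group and 872 reads at P7, a ratio of 346.5 of P7 to adult (exact interval 95.6 to 2866). Pcnt, the pericentriolar scaffold that moves to the nuclear envelope of muscle cells, was higher (1.36).

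**Figure D2:**
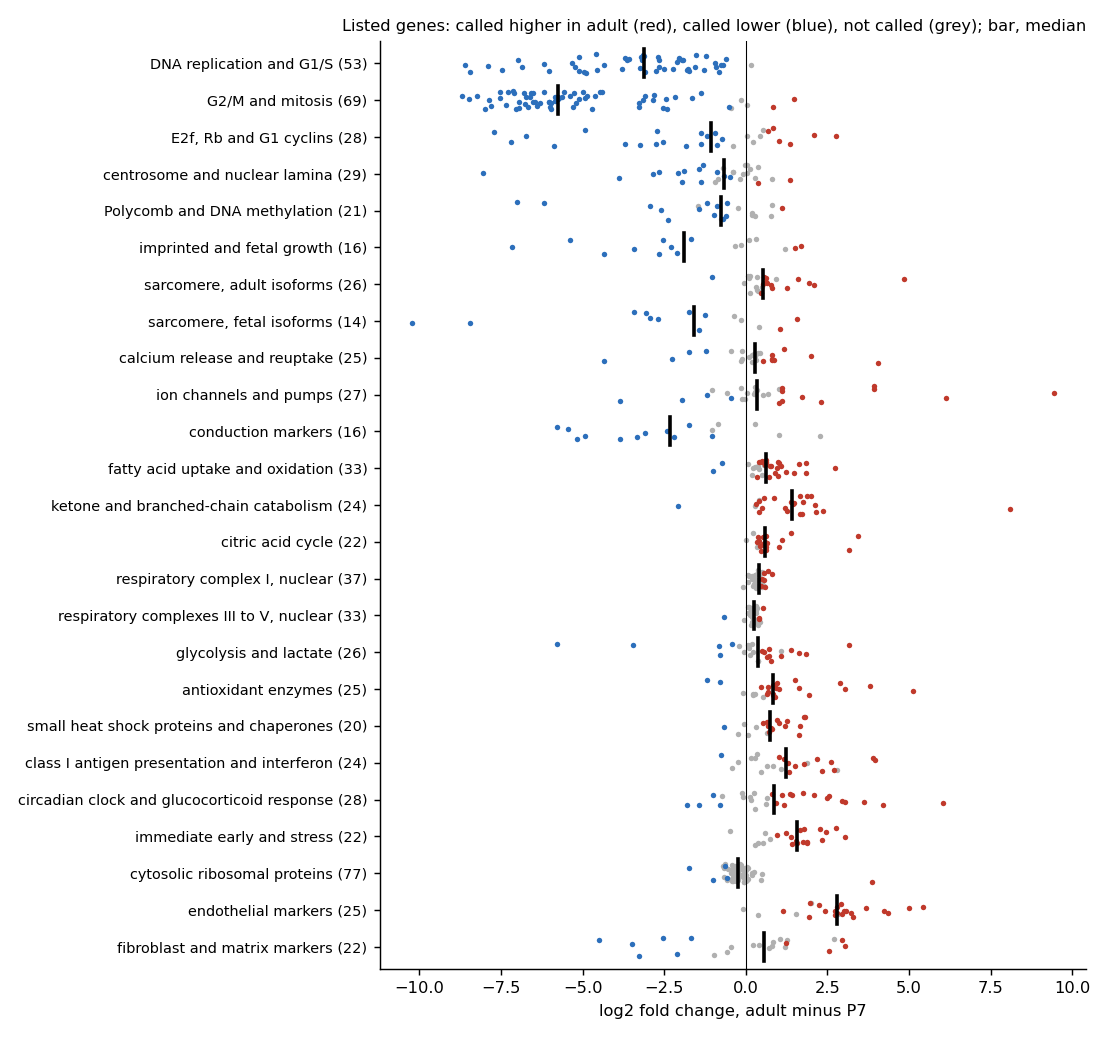
Log2 fold change (x axis, adult minus P7) of each measured member of 25 gene lists (rows, with the number of genes), with red for called higher in the adult, blue for called lower, grey for not called, and a black bar at the median. The medians run from -5.76 in G2/M and mitosis to 2.80 in endothelial markers, and the medians of adult sarcomere, calcium, glycolysis, citric acid cycle, complex I and complexes III to V genes, which lie between 0 and 1 here, were below 0 under quantile normalization.

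Contractile proteins changed by isoform. Troponin I, the inhibitory subunit of the thin filament switch, has a slow skeletal form (Tnni1) in the fetal heart and a cardiac form (Tnni3) in the adult heart. Tnni1 (ENSMUSG00000026418) had 0.878, 0.622 and 2.14 CPM in adult libraries, against 1113, 1325 and 1491 CPM in P7 libraries. All adult values lay far below the P7 values, at 1194-fold lower (-10.22 ± 0.35 SE, limma adjusted p = 1.58e-11). Tnni3 had 3040, 3787 and 3374 CPM in the adult against 1981, 2160 and 2451 CPM at P7, with no overlap (0.63 ± 0.19 SE, limma adjusted p = 0.0137). Its call was lost without adult replicate 2 or P7 replicate 1 (limma adjusted p = 0.0587 and 0.0552) and under quantile normalization (0.04, adjusted p = 0.806). The log2 ratio of Tnni3 to Tnni1 was 11.7, 12.5 and 10.6 in adult libraries and 0.83, 0.70 and 0.72 in P7 libraries.

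Of 14 fetal or smooth muscle contractile genes 9 were lower in the adult and 2 higher (median -1.58). Myl4, the atrial and fetal essential light chain, fell to 2.69, 4.84 and 3.18 CPM in adult libraries, against 23.1, 23.9 and 34.7 CPM in P7 libraries (-2.94 ± 0.36 SE). Myl9, a smooth muscle light chain, fell to 51.2, 69.2 and 54.8 CPM, against 585, 566 and 736 CPM at P7 (-3.43 ± 0.21 SE, limma adjusted p = 2.77e-09). The smooth muscle protein Cnn1 had 1 read in the adult group and 948 at P7, a ratio of 753.5 of P7 to adult (exact interval 134.9 to 29790). Acta1, skeletal actin, was the opposite, with 605, 608 and 489 CPM in the adult and 161, 250 and 171 CPM at P7 (1.57 ± 0.22 SE, limma adjusted p = 2.62e-05).

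The myosin heavy chains Myh7 and Myh6 showed no change past the test, whereas Myh7b, of the same family, was called higher. Myh7, the slow fetal chain, had 1243, 625 and 753 CPM in adult and 1399, 700 and 813 CPM in P7 libraries, so the groups overlapped (-0.15 ± 0.41 SE, limma adjusted p = 0.802). Myh6, the adult chain, had 22770, 18560 and 19610 CPM in the adult and 14750, 15170 and 13770 CPM at P7, without overlap but short of the threshold (0.48 ± 0.34 SE, limma adjusted p = 0.296). That SE draws on the spread of all 18 libraries, and Myh6 was called in 4 of 25 alternative settings. Myh7 was called in 0 of 25. In E18.5 mononucleated cells Myh7 averaged 12400 ± 1017 CPM (SD, n = 3), so its decrease stood between E18.5 and P7 (-3.74, limma adjusted p = 7.44e-06).

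Of 26 adult sarcomere genes 13 were higher and 1 lower, with a median of 0.51, which became -0.04 under quantile normalization with 7 higher and 5 lower. The member that was lower was Synpo2l, an actin-binding protein of the Z-disc, at 196, 151 and 194 CPM in adult libraries against 416, 338 and 360 CPM in P7 libraries (-1.05 ± 0.16 SE, limma adjusted p = 4.76e-05). Myot, the Z-disc protein myotilin, had 168, 174 and 143 CPM in adult libraries against 3.91, 6.25 and 7.16 CPM in P7 libraries, 28.7-fold higher (4.84 ± 0.99 SE, limma adjusted p = 0.000891). Tcap, the titin cap, had 1373, 1673 and 1537 CPM in the adult against 627, 629 and 639 CPM at P7 (1.27 ± 0.17 SE, limma adjusted p = 1.7e-05). The muscle structural genes Cmya5 (2.08) and Xirp2 (1.93) were higher as well, and so was Lmod2 (1.61), which lengthens thin filaments at their pointed ends. Trim54, a muscle ubiquitin ligase that binds titin and microtubules, had 330, 342 and 341 CPM in the adult and 25, 19.2 and 22.5 CPM at P7 (3.93 ± 0.18 SE, limma adjusted p = 1.51e-10).

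**Figure D3:**
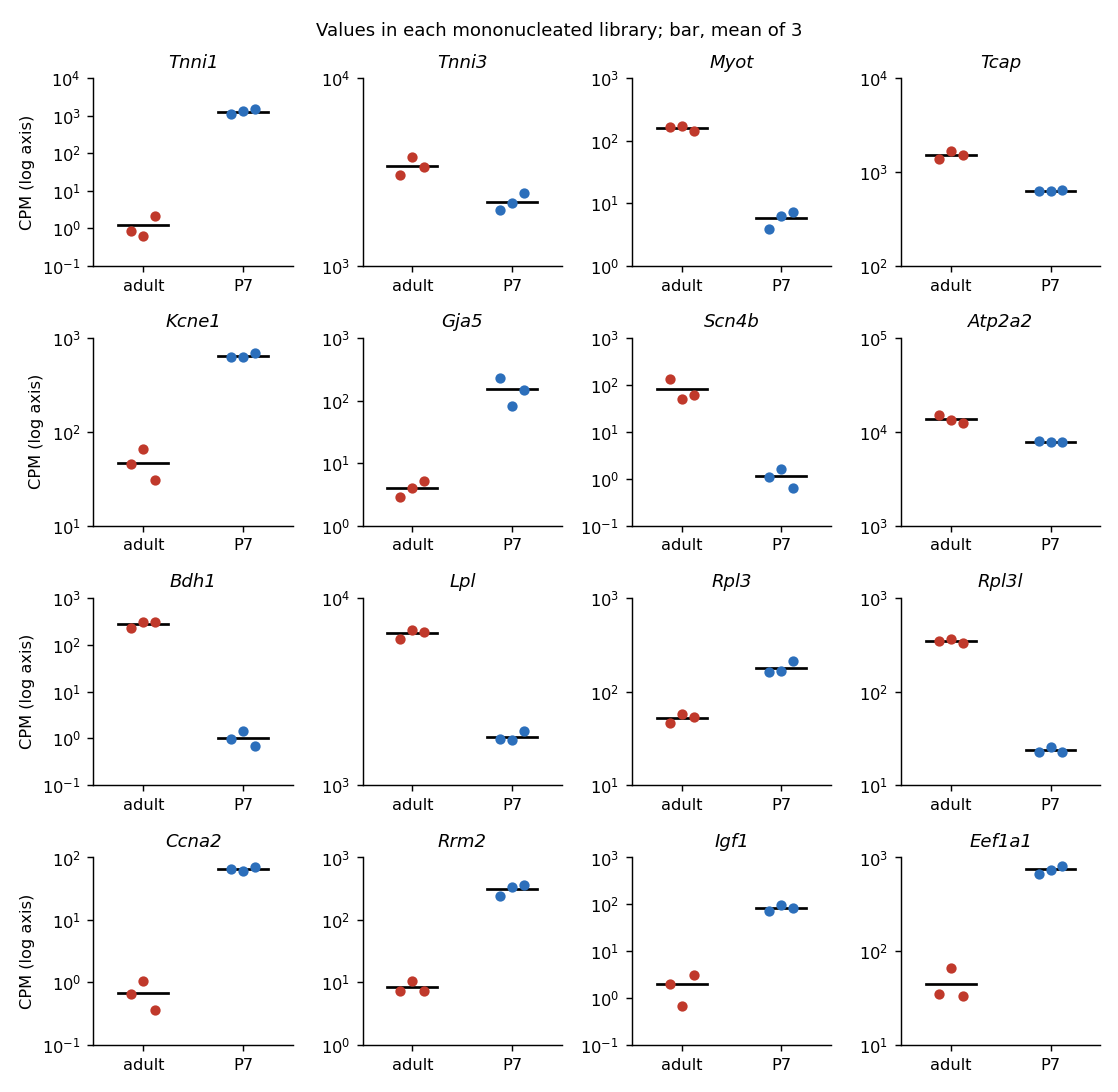
Level of 16 genes in each mononucleated library (y axis, CPM on a log axis; adult left in red, P7 right in blue; bar, mean of 3). The 16 genes were picked from called genes. In each panel the 3 adult points do not overlap the 3 P7 points, as in 59.3% of all genes. Changes run from 1194-fold lower for Tnni1 to 271-fold higher for Bdh1.

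Genes of calcium handling moved in both directions. Of 25, 8 were higher (32%) and 4 lower (16%), beside 19.1% and 22.3% of all genes. The median was 0.27, and -0.05 under quantile normalization. Hrc, which binds calcium inside the sarcoplasmic reticulum, had 516, 583 and 534 CPM in adult libraries and 131, 136 and 138 CPM in P7 libraries (2.01 ± 0.15 SE, limma adjusted p = 3.15e-08). Ryr2, the calcium release channel, was higher at 1058, 737 and 789 CPM against 519, 480 and 412 CPM (0.86 ± 0.17 SE), a call lost under quantile normalization (0.36, limma adjusted p = 0.146). Atp2a2, the calcium pump, had 15040, 13450 and 12490 CPM in the adult against 8029, 7756 and 7725 CPM at P7 (0.80, limma adjusted p = 0.0128), and no difference at all after quantile normalization. The T-type calcium channels Cacna1g (-1.75) and Cacna1h (-1.21), typical of the fetal ventricle, were lower. Fkbp1b, which binds the release channel, was lower too, at 0.22, 0.207 and 0.306 CPM against 5.51, 4.66 and 6.52 CPM at P7.

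Of 27 ion channel and pump genes 10 were higher (37%) and 4 lower (14.8%), beside 19.1% and 22.3% of all genes (median 0.34). Kcne1, the accessory subunit of the slow delayed rectifier, fell to 44.8, 65.4 and 30.7 CPM in the adult, against 623, 621 and 701 CPM at P7 (-3.85 ± 0.23 SE, limma adjusted p = 2.88e-09). The transient outward current genes exchanged places. Kcnd2 (2.30) and its partner Kcnip2 (1.10), which carry the fast component, were higher, while Kcna4, which carries the slow component, was lower at 6.15, 5.18 and 6.61 CPM against 33.5, 24.2 and 15.8 CPM at P7 (-1.97 ± 0.32 SE). Scn4b, a sodium channel beta subunit, had 137, 49.6 and 61.2 CPM in adult and 1.08, 1.63 and 0.64 CPM in P7 libraries, 69.8-fold higher (6.12 ± 1.06 SE, limma adjusted p = 0.00021). Kcnv2, a silent potassium channel subunit, had 23.3, 13.7 and 15.7 CPM in the adult and 0 reads in all P7 libraries, at least 369-fold higher with a floor of 3 reads over the P7 group.

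Markers of the ventricular conduction system were mostly lower. Of 16 measured, 11 were called lower and 0 higher (median -2.32). Of these 16, 3 had a log2 fold change above 0, at most 2.26, without passing the test. Gja5, a connexin found in the atria and in Purkinje fibres, had 2.91, 4.01 and 5.08 CPM in adult libraries and 234, 83.2 and 146 CPM in P7 libraries, with no overlap (-5.17 ± 0.45 SE, limma adjusted p = 1.74e-07). Cntn2, an adhesion protein that marks Purkinje cells, fell to 0.604, 1.52 and 1.41 CPM in the adult, against 105, 37 and 58.9 CPM at P7 (-5.77 ± 1.36 SE, limma adjusted p = 0.00271). Ntm (-4.94), the neuronal type sodium channel gene Scn10a (-3.33), the connexin Gjc1 (-2.20) and the transcription factor Etv1 (-2.43) fell too, whereas Gja1, the connexin of working muscle, had 1532, 1391 and 1655 CPM in the adult and 1475, 1447 and 1436 CPM at P7 (limma adjusted p = 0.771). Hcn4, the pacemaker channel, did not pass (-1.05, limma adjusted p = 0.146). The summed level of the 16 genes was 893, 536 and 599 CPM in adult, 2152, 1453 and 1633 CPM in P7 and 563 to 688 CPM in E18.5 mononucleated libraries, so this sum was highest at P7. Kcne1, described with the ion channels, is also a member of this list and made up a large part of the P7 sum. The order of the ages without Kcne1 was not tested. Whether the share of conduction cells among the sorted cells differed between ages was not tested.

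Branches of energy metabolism differed in how many of their genes were higher, and in several the direction of the median depended on the normalization. Fatty acids enter the muscle cell by lipoprotein lipase and Cd36 and are burned in the mitochondrion. Of 33 genes of this route 23 were higher in the adult and 2 lower, with a median of 0.62, and 11 higher and 3 lower with a median of 0.15 under quantile normalization. Lpl, the lipase, had 6055, 6712 and 6605 CPM in adult libraries and 1760, 1733 and 1938 CPM in P7 libraries (1.83 ± 0.11 SE, limma adjusted p = 2.94e-09). Pnpla2, which releases stored fat (1.64), Cpt2, the inner carnitine transferase (1.24), and Acadm, the medium chain dehydrogenase (0.97), were higher. Cpt1a, the liver type of the outer carnitine transferase, was lower at 84.8, 81.6 and 78 CPM against 204, 160 and 134 CPM at P7 (-1.01 ± 0.22 SE, limma adjusted p = 0.00181). The muscle type Cpt1b had 2.74, 2.35 and 1.96 CPM in adult and 1.69, 1.72 and 1.86 CPM in P7 libraries and did not pass (limma adjusted p = 0.321). Its level was low enough to be removed by a filter on low values, and whether all its reads were counted was not tested.

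The breakdown of ketone bodies and branched-chain amino acids rose more uniformly, with 21 of 24 genes higher and 1 lower (median 1.42, and 1.18 with 16 higher and 1 lower under quantile normalization). The first enzyme of ketone use is Bdh1, which oxidizes hydroxybutyrate. It had 224, 312 and 297 CPM in adult libraries and 0.955, 1.45 and 0.698 CPM in P7 libraries, 271-fold higher (8.08 ± 0.29 SE, limma adjusted p = 1.58e-11). Oxct1, which activates acetoacetate in the next step, had 2010, 2208 and 2228 CPM in the adult against 447, 621 and 575 CPM at P7 (1.98 ± 0.12 SE). Ivd, of leucine breakdown, had 1003, 975 and 958 CPM against 202, 232 and 227 CPM at P7 (2.16 ± 0.12 SE, limma adjusted p = 1.7e-09). Bcat2 (1.46), the first enzyme of the branched-chain route, and Aldh6a1 (2.37), of valine breakdown, were higher.

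Of 22 citric acid cycle genes 19 were higher and 0 lower (median 0.58), while under quantile normalization 4 were higher and 3 lower (median -0.01). The 2 members with larger changes feed the cycle or stand in for a subunit of it. Pcx, which makes oxaloacetate from pyruvate, had 122, 101 and 106 CPM in adult and 12.6, 11.6 and 12.4 CPM in P7 libraries (3.17 ± 0.32 SE, limma adjusted p = 8.11e-07). Ogdhl, the paralogue of a dehydrogenase subunit, had 135, 81.4 and 54.5 CPM in the adult against 8.6, 7.27 and 7.62 CPM at P7 (3.43 ± 0.38 SE). Of 37 nuclear genes of respiratory complex I 7 were higher (18.9%, beside 19.1% of all genes) and 0 lower (median 0.39), with 0 higher under quantile normalization (median -0.04). Of 33 genes of complexes III to V 3 were higher (9.09%) and 1 lower (median 0.25), against 0 and 5 under quantile normalization (median -0.25). Muscle isoforms rose against their common partners in each library. The log2 ratio of Cox6a2 to Cox6a1 was 3.13, 3.31 and 3.24 in the adult against 1.32, 1.10 and 1.11 at P7, and that of Cox7a1 to Cox7a2 was 0.14, 0.14 and 0.12 against -1.08, -1.07 and -1.16.

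Sugar use was mixed, with 11 of 26 glycolytic genes higher (42.3%) and 5 lower (19.2%), beside 19.1% and 22.3% of all genes. The median was 0.36, and -0.07 under quantile normalization. Slc2a4, the insulin dependent glucose carrier, had 943, 899 and 936 CPM in adult and 296, 288 and 307 CPM in P7 libraries (1.64 ± 0.11 SE, limma adjusted p = 1.25e-08). Hk2, the muscle hexokinase, was higher (1.38), and so was Pdk4, the kinase that closes pyruvate entry, at 1847, 3615 and 2090 CPM against 670, 414 and 356 CPM at P7 (2.38 ± 0.39 SE). Slc16a3, a carrier that exports lactate, fell to 0.439, 0.83 and 0.49 CPM, against 7.21, 5.69 and 6.69 CPM at P7 (-3.46 ± 0.34 SE). Creatine kinase changed by isoform. Ckmt2, the mitochondrial form, had 2973, 3624 and 3251 CPM in the adult and 961, 1173 and 1261 CPM at P7 (1.54), whereas the brain form Ckb had 96.9, 103 and 111 CPM against 296, 381 and 381 CPM (-1.76 ± 0.12 SE, limma adjusted p = 1.13e-08).

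Of 25 antioxidant genes 18 were higher and 2 lower (median 0.84, and 0.40 under quantile normalization). Gstm1, a glutathione transferase of a family with close copies, had 438, 584 and 538 CPM in adult libraries and 32.5, 40.5 and 37.4 CPM in P7 libraries (3.81 ± 0.15 SE, limma adjusted p = 3.63e-11). Sod3, the extracellular superoxide dismutase, had 30.3, 30.7 and 20.8 CPM against 1.17, 0.606 and 0.582 CPM at P7 (5.12 ± 0.51 SE). Gpx1 (-1.19) and Gsr (-0.80) were lower. Ces1d, a lipase and carboxylesterase, had 439, 445 and 421 CPM in the adult and 3.95, 2.66 and 2.85 CPM at P7, 139-fold higher (7.12 ± 0.88 SE, limma adjusted p = 7.2e-06).

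Translation genes changed little as a family, with 1 of 77 cytosolic ribosomal protein genes higher and 4 lower (median -0.23), but 2 pairs of paralogues switched. Rpl3l, the muscle form of a ribosomal protein, had 344, 367 and 326 CPM in adult libraries and 22.4, 25.4 and 22.8 CPM in P7 libraries, and the common Rpl3 had 46.5, 58.2 and 53 CPM in the adult against 160, 164 and 210 CPM at P7. The ratio of Rpl3l to Rpl3 changed 49.5-fold, with no overlap. Eef1a1, the common elongation factor, fell to 35.3, 66.7 and 33.2 CPM, against 674, 742 and 817 CPM at P7 (-4.12 ± 0.23 SE, limma adjusted p = 1.36e-09), and its muscle and neuron form Eef1a2 was higher (1.59). Rpl3 and Eef1a1 have processed copies in the genome, so their levels are uncertain where reads were shared.

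Chromatin and growth genes of the fetus were lower. Of 21 Polycomb and DNA methylation genes 12 were lower and 1 higher (median -0.76). The higher member was Ezh1, the Polycomb methylase of resting cells, at 85.1, 90.9 and 87.8 CPM in adult and 46.7, 42.4 and 34 CPM in P7 libraries (1.11 ± 0.29 SE, limma adjusted p = 0.00618). Its paralogue Ezh2, of dividing cells, had 5.65, 6.71 and 4.65 CPM against 30, 35.3 and 36.8 CPM at P7 (-2.59 ± 0.19 SE, limma adjusted p = 2.46e-08). Dnmt1, the maintenance methylase, fell (-2.93). Of 16 imprinted or fetal growth genes 9 were lower and 2 higher (median -1.90). Igf2, the fetal growth factor, had 0.384, 0.346 and 0.306 CPM in the adult and 55, 48.2 and 58.6 CPM at P7 (-7.17 ± 0.30 SE, limma adjusted p = 7.77e-11). Igf1 was also lower, at 2.03, 0.691 and 3.12 CPM against 71.1, 96.5 and 84.4 CPM at P7 (-5.64 ± 0.43 SE), and Mest and Peg3, both expressed from the paternal copy, changed by -5.39 and -2.54. Impact was the opposite (1.70).

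Of 29 cardiac transcription factors 7 were higher and 7 lower (24.1% each, near the 19.1% and 22.3% of all genes; median -0.14), and Gata4, Nkx2-5 and Tbx5 did not pass. Klf15, which drives lipid and amino acid use, had 160, 227 and 168 CPM in adult libraries and 23.4, 19.7 and 23.2 CPM in P7 libraries (3.05 ± 0.18 SE, limma adjusted p = 2.59e-09). Hand1, a factor of early ventricular growth, had 0 reads in the adult and 1.13, 1.21 and 1.98 CPM at P7, at least 22.8-fold lower. Tead2, a partner of Yap, fell to 0.165, 0.0691 and 0.0612 CPM, against 20, 19.1 and 20.5 CPM at P7 (-7.34 ± 0.59 SE). Of 26 genes of adrenergic and muscarinic signalling 7 were higher (26.9%) and 6 lower (23.1%), beside 19.1% and 22.3% of all genes, with a median of 0.38. Adra1a, an alpha receptor, had 36.1, 21.9 and 26.3 CPM in the adult and 0.0434, 1.35 and 0.989 CPM at P7 (5.94 ± 1.15 SE, limma adjusted p = 0.00058), and Adrb1, the main cardiac beta receptor, did not pass (-0.55).

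Genes of the clock and of the glucocorticoid response rose in part. Of 28 measured, 15 were higher and 4 lower (median 0.87). Nr1d1, the repressor called Rev-erb alpha, had 196, 187 and 212 CPM in adult libraries and 35.1, 37.4 and 29.7 CPM in P7 libraries (2.54 ± 0.27 SE, limma adjusted p = 1.15e-06). Arntl, the activator of the core loop, was higher at 37.5, 77.3 and 57.3 CPM against 10.7, 12.8 and 6.98 CPM at P7 (2.48 ± 0.31 SE), while Per3 was lower (-1.79) and Clock, Per1, Per2, Cry1 and Cry2 did not pass. The hour at which hearts were taken is not given in the labels, and its part in these values was not tested. In the promoter windows, an E-box (CACGTG on either strand) stood in 8 of 24 genes of this list (33.3%), against 12% of all windows. The share was similar in the E2f, Rb and G1 cyclin list, at 6 of 20 (30%).

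Immediate early genes, which respond within minutes to stretch, injury or cell isolation, were higher in 16 of 22 and lower in 0 (median 1.56). Zfp36, which removes short-lived messages, had 300, 461 and 381 CPM in adult libraries and 43.1, 50.2 and 45.1 CPM in P7 libraries (3.02 ± 0.37 SE, limma adjusted p = 7.31e-06). Egr1 had 1089, 1359 and 1513 CPM in the adult against 341, 280 and 205 CPM at P7 (2.28 ± 0.46 SE, limma adjusted p = 0.000785), and Ier2 was higher as well (2.45). The summed level of the 22 genes was 6604, 9042 and 8798 CPM in adult and 3239, 2872 and 2056 CPM in P7 libraries. Myc, described with the cell cycle regulators, is also a member of this list. The part of cell isolation in these values was not tested. Of 20 chaperone genes 14 were higher and 1 lower (median 0.73), with Hspb8, a small heat shock protein of the Z-disc, at 571, 512 and 494 CPM against 130, 158 and 161 CPM at P7 (1.82 ± 0.15 SE), whereas the inducible Hspa1b did not pass (-0.48).

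Genes of class I antigen presentation and the interferon response were higher in 12 of 24 and lower in 1 (median 1.23). B2m, the class I light chain, had 94.7, 105 and 92.7 CPM in adult libraries and 30.2, 39 and 35 CPM in P7 libraries (1.49 ± 0.26 SE, limma adjusted p = 0.000193). H2-D1, a heavy chain of a family with close copies, had 60.7, 52.3 and 43.9 CPM against 11, 11.8 and 11.6 CPM at P7 (2.17 ± 0.16 SE), and Tap2, which pumps peptides into the endoplasmic reticulum, was higher (2.33). Markers of other cells moved with this group. Endothelial markers were higher in 20 of 25 and lower in 0 (median 2.80), with a summed level of 224, 320 and 253 CPM in adult and 66.3, 33.6 and 39.6 CPM in P7 libraries, and all 25 had reads in both groups. Kdr, a defining receptor of endothelial cells, had 27.7, 26.1 and 22.2 CPM in the adult and 5.17, 0.652 and 2.1 CPM at P7. Their part in the class I and interferon values was not tested.

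Leukocyte markers were higher in 8 of 11 measured genes and lower in 1 (median 4.76, and 4.68 with the genes at 0 set to their bound), but the median was -1.24 with the filter on low values. Their summed level was 33.7, 24.61 and 38.63 CPM in adult and 20.88, 18.97 and 30.14 CPM in P7 libraries. Laptm5, C1qb and F13a1 had 0 reads in every P7 library, so the list measured them only through groups where they had reads. The lower member was Lyz2, a lysozyme of myeloid cells, at 7.3, 6.91 and 10.1 CPM in adult against 17.9, 14.9 and 25.7 CPM in P7 libraries (limma adjusted p = 0.0272). Its call was lost without P7 replicate 1 or 3 (0.0544 and 0.112), without adult replicate 1 or 2 (0.0744 and 0.0821) and under quantile normalization (0.0915). Csf1r, the macrophage receptor, had 81 reads in the adult and 2 at P7, a ratio of 50.96 of adult to P7 (exact interval 13.7 to 428). Ptprc, the general leukocyte marker, and 13 other members of this list are not among the listed genes. Of 22 fibroblast and matrix genes 4 were higher (18.2%) and 6 lower (27.3%), near the 19.1% and 22.3% of all genes. Their median of 0.55 was -1.88 with the filter on low values and ranged from 0.03 to 0.79 with 1 library left out. Their summed level was 176.5, 255.6 and 253.6 CPM in adult against 1170, 1040 and 1247 CPM in P7 libraries. Sparc, a matrix protein, had 62.6, 91.6 and 96 CPM in the adult and 781, 700 and 893 CPM at P7 (-3.26 ± 0.19 SE, limma adjusted p = 2e-09), and Col6a2 fell with it (-4.49), whereas Dcn, a fibroblast proteoglycan, was higher (2.95). Col1a1, Col3a1 and Pdgfra did not pass. Erythroid genes overlapped in their sum, at 227 to 530 CPM in adult and 353 to 474 CPM in P7 libraries.

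**Figure D4:**
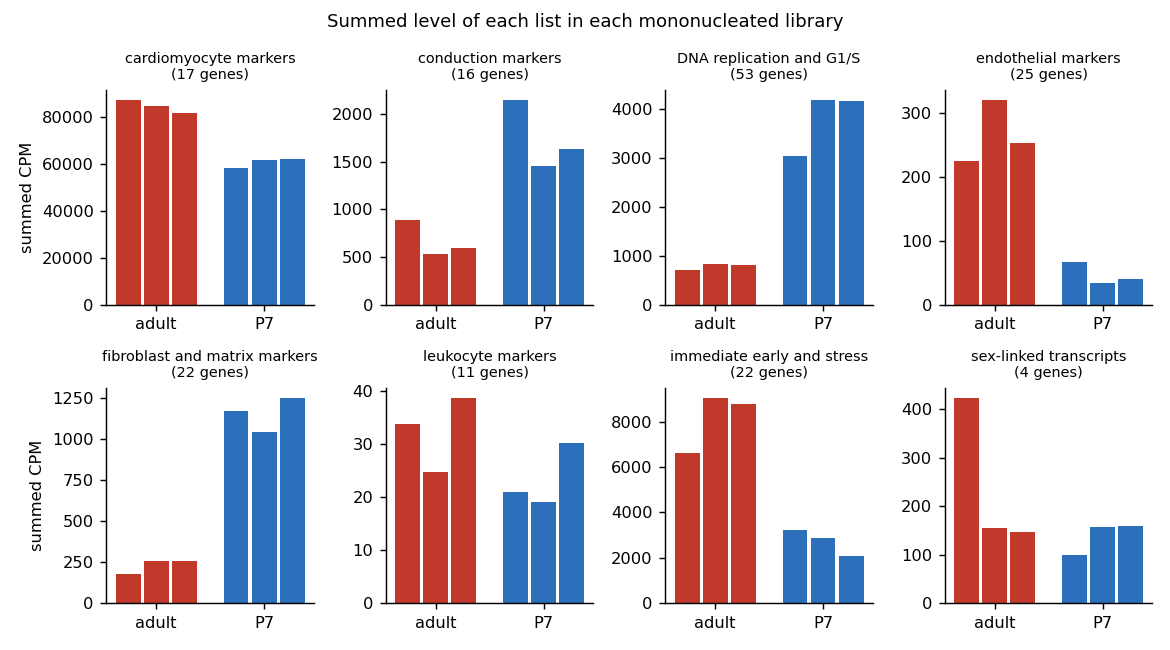
Summed CPM of 8 gene lists in each mononucleated library (y axes from 0; 3 adult bars in red left, 3 P7 bars in blue right). Cardiomyocyte markers, endothelial markers and immediate early genes stand higher in the adult, replication, conduction and fibroblast genes lower, and leukocyte markers overlap. The median log2 fold change of the cardiomyocyte markers was 0.525, with 10 called higher and 1 lower. Under quantile normalization it was -0.021, with 0 called higher and 4 lower. Adult library 1 carries 423 CPM of Y-linked transcripts, above the other 5.

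Setting the 3 ages side by side, several genes had their extreme at P7. The contrast of P7 with E18.5 uses the same P7 libraries as the main comparison, so the values are given as they stand. Bdh1 averaged 21.4 ± 6.46 CPM at E18.5, 1.03 ± 0.379 at P7 and 278 ± 46.9 in the adult (SD, n = 3 each). P7 was thus the low point of Bdh1. Ucp2, a mitochondrial carrier, averaged 6.99 ± 2.36 CPM at E18.5, 372 ± 20.4 at P7 and 109.9 ± 21.8 in the adult. Pcx averaged 61.5 ± 1.59, 12.2 ± 0.532 and 109.7 ± 11.2 CPM in the same order, and Cntn2 0.211 ± 0.365, 67 ± 34.7 and 1.18 ± 0.5 CPM. Slc2a1, the fetal glucose carrier, was also lowest at P7, averaging 179 ± 9.38, 18.9 ± 2.31 and 31 ± 2.16 CPM from E18.5 to adult. Tnni1 averaged 2378 ± 115 CPM at E18.5 and 1310 ± 189 at P7, which did not differ past the threshold (limma adjusted p = 0.104), and 1.21 ± 0.814 in the adult.

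The same contrast in binucleated cells uses other libraries. Of the 4993 genes called in mononucleated cells, 4940 (98.9%) had the same sign in binucleated cells, where 4461 genes were called. The difference between the 2 changes was tested as an interaction, and 25 genes passed (0.208% of those tested; 568 at an unadjusted p under 0.05), each with a difference, mononucleated minus binucleated, below 0. Replicate numbers paired the 2 classes within an age, and with that block 64 genes passed, 58 of them with a difference below 0. The count of 25 depended on single libraries. With the block left out, 0 genes passed without P7 binucleated replicate 2 or without P7 mononucleated replicate 3, and 4 without P7 binucleated replicate 1 or P7 mononucleated replicate 2. The count was 7 without adult mononucleated or adult binucleated replicate 3, 9 without adult mononucleated replicate 1 or P7 binucleated replicate 3, 12 without adult binucleated replicate 2, and 102 without E18.5 binucleated replicate 1. With voom weights 1 gene passed.

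Of the 25 genes, 10 belong to the replication list, in which the difference was below 0 for all 53 members (median -3.11 against -1.37 in binucleated cells). Rpa2, of the complex that coats single-stranded DNA, had 28.3, 30.7 and 36.2 CPM in adult and 74.2, 95.4 and 104 CPM in P7 mononucleated libraries, against 31.9, 33.7 and 34.1 CPM in adult and 29.7, 22 and 32.3 CPM in P7 binucleated libraries. Its change was -1.52 in mononucleated and 0.27 in binucleated cells, a difference of -1.78 ± 0.25 SE (limma adjusted p = 0.0163; 0.0536 without P7 binucleated replicate 2). Ccne2, the cyclin that starts S phase, had 5.54, 6.36 and 6.86 CPM in adult and 61.6, 90.8 and 96.2 CPM in P7 mononucleated libraries, against 3.43, 3.73 and 4.42 CPM in adult and 12.1, 7.57 and 13.9 CPM in P7 binucleated libraries. The adult values of both genes lay close in the 2 classes and the P7 values far apart. The difference was -2.21 ± 0.33 SE for Ccne2 (limma adjusted p = 0.0163; 0.08 without P7 mononucleated replicate 3).

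The summed level of the replication genes showed the same order, at 716 to 826 CPM in adult and 3042 to 4186 CPM in P7 mononucleated libraries, against 731 to 799 CPM in adult and 1129 to 1434 CPM in P7 binucleated libraries. For the mitotic genes the medians lay closer, at -5.76 in mononucleated and -5.10 in binucleated cells. Outside replication, Mest changed by -5.39 in mononucleated and -2.88 in binucleated cells (difference -2.50 ± 0.37 SE, limma adjusted p = 0.0163; 0.0639 without P7 mononucleated replicate 3). Gucy1a1, a subunit of the nitric oxide receptor, changed by -3.92 and -0.46 (difference -3.46 ± 0.49 SE; limma adjusted p = 0.0536 without P7 binucleated replicate 2). Slco3a1, an organic anion carrier, was the single gene of the 25 that rose in mononucleated cells, by 1.41, and it rose by 2.90 in binucleated cells.

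**Figure D5:**
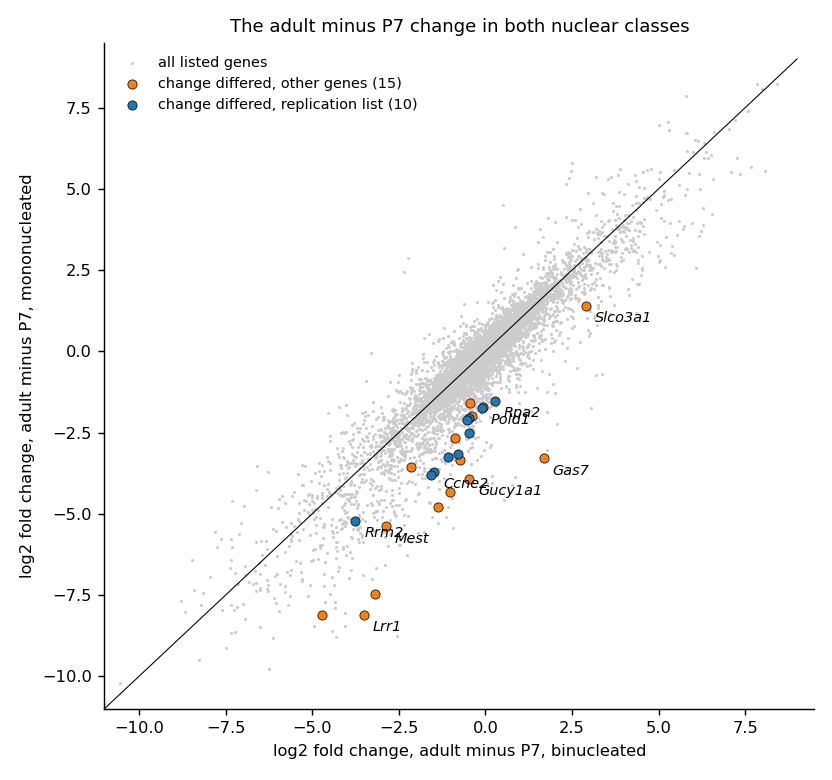
Log2 fold change, adult minus P7, in mononucleated cells (y axis) against that in binucleated cells (x axis) for all listed genes, with the line of equal change. The 25 genes whose change differed lie below the line, 10 of them from the replication list in blue, such as Rpa2 at -1.52 against 0.27 and Ccne2 at -3.70 against -1.49.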

How the data were processed

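RNA of sorted cardiomyocytes was made into stranded mRNA libraries with SMARTer amplification, per the labels' protocols, and the submitters' processing notes name STAR, limma and the genome build mm9. The deposited values are on a log2 scale set by the authors. In all libraries they equal the log2 of a whole read count plus 0.5, multiplied by 1 factor per library, with 100.0% of values whole within 0.001. Reads were recovered from this form and expressed as CPM of the library size it implies. The overall constant of the scale has no stated value in the labels and cancels in every difference.

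The 12048 listed genes of all 18 libraries were fitted with limma 3.58.1 in R 4.3.3, with 1 mean per age and nuclear class, a trended prior and Benjamini-Hochberg adjustment. Tables and promoter searches used Python 3.11.15, numpy 2.4.6, pandas 2.3.3, scipy 1.17.1 and matplotlib 3.10.9. Tested on simulated data, the adult against P7 step called 100 of 100 genes changed by 2 on the log2 scale and 60 of 100 changed by 1. It also called 10 unchanged genes, over 12048 genes. The changed genes were drawn only from those with many reads, so these counts do not carry over to genes with few reads. Totals of 16476191 to 20946659 reads in the 6 mononucleated libraries set the precision, and intervals and floors cover counting error only.

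Named genes were the 15 largest changes per direction without overlap, up to 5 per direction of each list by adjusted p, isoform partners, 8 per direction of the difference between classes, the 10 smallest adjusted p-values, and members whose role the text needs, which are not in the tally of named genes. The 15 per direction were taken among called genes, after genes with the lowest mean levels were set aside. The members and the 54 lists were chosen with earlier results of these data known. Replicate numbers were checked for pairing. Between adult and P7 mononucleated libraries same-numbered samples correlated at 0.109, -0.0887 and 0.0124, and they were not treated as pairs. Between mononucleated and binucleated libraries of an age the correlations ran from 0.182 to 0.327, so the numbers pair those classes. Alternatives were other scalings, a filter, another offset, weights, fewer libraries, a replicate block and leaving out each library. Some items withheld for evaluation are not reported here.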

Additional observations from a re-analysis of the deposited data

Results flagged for a closer look

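The change between adult and P7 differed between mononucleated and binucleated cells by the test of the difference itself (limma interaction, Benjamini-Hochberg over all genes) in the following named genes, each with the mononucleated change below the binucleated change. Slco3a1 rose in both classes, by less in mononucleated cells. Among genes of replication and its start, the difference in log2 fold change was -2.21 for Ccne2, -1.78 for Rpa2, -1.64 for Pold1 and -1.47 for Rrm2. For Brip1, a helicase of DNA repair, it was -3.42. Outside these it was -3.29 for Wdr90, -3.46 for Gucy1a1, -2.50 for Mest, -1.50 for Slco3a1 and -1.41 for Mcam. Each of these lost the call when 1 P7 library was left out, with its highest adjusted p between 0.0536 (Rpa2 and Gucy1a1) and 0.147 (Rrm2). With the replicate block within age each kept an adjusted p under 0.05.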

How the results depend on the processing

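The count of 4993 genes ran from 3562 with a filter on low values to 7410 with array weights over the alternatives, and from 4196 to 6484 when 1 library was left out. The 6484 came without E18.5 binucleated replicate 1, and leaving out any other library tried gave at most 4876. It was 4888 with the replicate block, 4988 with the replicate block within age, 4663 with quantile normalization, 5095 with scaling by the median, and 2844 with a required log2 fold change of 1. The replicate numbers do not pair adult with P7 samples: 1 of 3 correlated best with its own number. Scaling by the median moved the median of all genes by 0.105 and the share of higher calls to 54.4%, against 46.1%. The 25 genes whose change differed between classes became 15 with the replicate block, 64 with the replicate block within age, 16 with scaling by the median, 233 with array weights, 52 with an offset of 5, 1 with voom weights, 12 with the filter and 0 to 102 without 1 library. Of the 384 genes named by rank or as isoform partners 377 were called, and 300 kept the call in all alternatives run for them; members named only for their role are not in this tally. Under quantile normalization the fold change of 15 genes turned sign or reached 0, to -0.13 for Ak1, 0 for Atp2a2, -0.22 for Atp5a1, -0.28 for Ckm, -0.0067 for Cs, -0.011 for Fhl2, -0.025 for Mb, -0.0397 for Ndufa10, -0.038 for Ndufs1, -0.12 for Ndufv1, -0.021 for Pln, -0.057 for Slc25a4, -0.082 for Tnnt2, -0.17 for Uqcrc1 and -0.059 for Uqcrfs1. The cause was not tested. Under the filter, which tests fewer genes, the medians of fibroblast, pericyte and leukocyte markers were -1.88, -1.44 and -1.24. Depth limits genes with few reads, where 3 reads set the floor.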

Other observations

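Transcripts encoded by mitochondrial DNA, chosen after their values were seen, took 2.01, 2.55 and 2.66% of the reads of adult libraries and 1.5, 1.71 and 1.89% of those of P7 libraries. All 11 listed had a log2 fold change above 0 (median 0.86), 6 passed the test as higher in the adult and 0 as lower. Under quantile normalization the median was 0.41 and 2 passed. The subunit gene mt-Nd2 of complex I had 2485, 3131 and 3145 CPM in adult libraries and 989, 1147 and 1356 CPM in P7 libraries, without overlap (1.33 ± 0.35 SE, limma adjusted p = 0.00589). Mitochondrial genes have nuclear copies, so reads shared with these are uncertain.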
